A study of Rattus norvegicus with 34 samples.

Results

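Rat tissues measured on TaqMan card A, 10 in number, were compared by the germ layer from which their characteristic cells arise. Pancreas, prostate, lung, bile duct, liver, and small intestine formed the endoderm-derived group (6 tissues), and kidney, heart, skeletal muscle, and spleen formed the mesoderm-derived group (4 tissues). These are 10 of the 34 libraries of the series, and 10 of its 12 tissues on card A. Salivary gland and lacrimal gland, which the study counts as ectodermal, were in neither group. All came from male and female Sprague-Dawley rats of 4 weeks, for which no treatment is named, and the RNA of these 10 libraries was not preamplified. Each tissue was 1 library, and the labels say neither how many animals gave it nor of which sex. The spread used below is therefore the spread between different organs of a germ layer, not between animals.

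Endoderm forms the lining of the gut and of the organs that bud from it, such as lung, liver, bile duct, and pancreas, and it also gives the epithelium of the prostate. Mesoderm forms heart and skeletal muscle, the spleen, and the kidney, whose tubules are epithelial although they do not come from endoderm. Every organ also holds vessels, connective tissue, and blood cells of mesodermal origin, so a whole organ is not a pure sample of its germ layer. MicroRNAs are short RNAs that repress messenger RNAs, and many are restricted to a cell type: the miR-200 family is known from epithelial cells, and miR-133 from striated muscle. The sample labels name a human array kit, and the title and design of the series name the rodent kit. The file numbers the wells of the card from 1 to 384 and pairs none of them with a miRNA. The array definition that pairs wells with miRNAs was not used here. Positions are therefore reported by number and without mature sequences, and the tissue labels were not checked against marker miRNAs. In whole tissues, fewer cells of a type and less miRNA per cell cannot be told apart.

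The CP value of a well is the PCR cycle at which its fluorescence crosses the threshold, and a lower CP means more template. Values above 35 were set to 35 and called undetected, after the detection limit of the study. Each library was scaled by subtracting its median CP over the 88 positions detected in all 10 tissues, here called the card level. The repeated positions 11, 12, 35, and 36 were left out, which left 380. The endoderm-derived tissues had 201 ± 46.4 detected positions (SD, n = 6) and the mesoderm-derived tissues had 226 ± 13.3 (SD, n = 4), a difference that did not pass a two-sided exact permutation test (p = 0.348). The card level was 27.2 ± 2.33 and 26.9 ± 0.913 cycles in the same order (two-sided exact permutation test, p = 0.805). Without pancreas the difference in detected positions went from -25.6 to -10.4, and that in card level from 0.325 to 0.0038 cycles. Pancreas stood apart, with 125 detected positions and a card level of 31.2 cycles. The other 9 tissues had from 174 (liver) to 249 (lung) detected positions and card levels from 24.5 (lung) to 28.1 cycles (liver). An undetected well thus has a scaled CP of at least 3.85 in pancreas, but of at least 6.88 in liver and 10.5 in lung, so an undetected pancreas well bounds its level far less. The highest CP of a well that amplified was 44.3 or 44.4 in pancreas, prostate, and bile duct and 41.0 to 42.0 in the other 7 tissues. No label names a run or its length, and the names longer and shorter runs are used here for this difference alone. All 3 longer runs are endoderm-derived, so comparisons were repeated within the 7 shorter runs, 3 endoderm-derived and 4 mesoderm-derived.

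**Figure D1:**
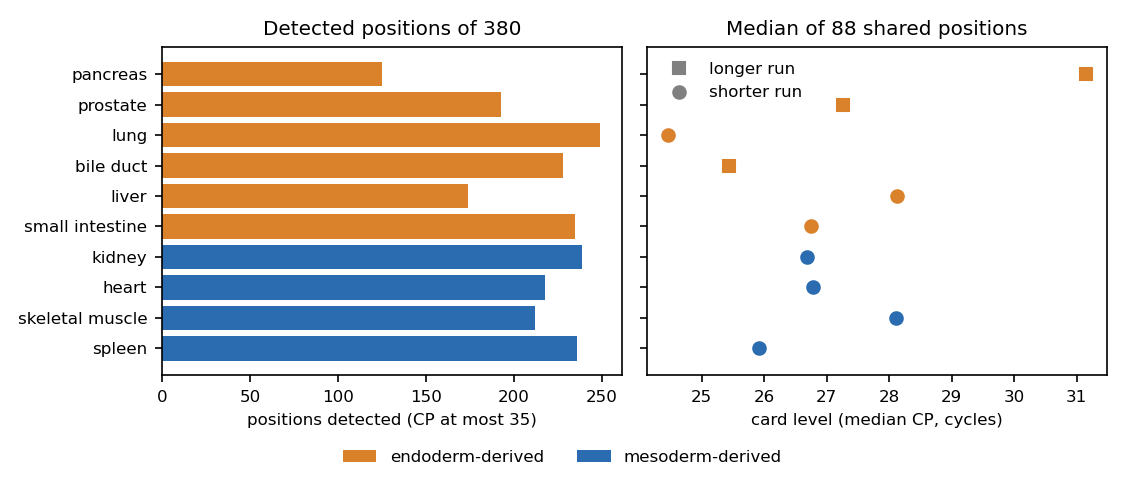
Left, bars of the number of positions with a CP of at most 35 among 380 in each tissue; right, the median CP in cycles over the 88 positions detected in all 10 tissues, with squares for longer runs and circles for shorter runs. Orange is endoderm-derived and blue is mesoderm-derived, and pancreas has the fewest positions (125) and the latest card level (31.2 cycles).

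The first question was which positions differed between the germ layers by more than the tissues of a germ layer differed among themselves. Of 380 positions, 73 were detected in no tissue and 70 in 1 to 3 tissues. The 237 positions detected in at least 4 tissues were tested with limma. With the Benjamini-Hochberg adjustment, 1 of the 237 passed an adjusted p of 0.05, which is 0.422% of those tested. This was position 252, with higher expression in the mesoderm-derived tissues. No position passed with higher expression in the endoderm-derived tissues. At an unadjusted p under 0.05, limma gave 9 positions (3.8%) with higher expression in endoderm-derived tissues and 13 (5.49%) with higher expression in mesoderm-derived tissues. The median absolute difference over the 237 positions was 0.915 cycles, and the median SD between tissues of a germ layer was 1.63 cycles. At 62 of the 237 positions the difference was larger than this residual SD of the same position.

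The direction of the smaller differences moved with the scale. The median difference over the 237 positions, endoderm-derived minus mesoderm-derived, was 0.50 cycles, and 31.2% of the positions had a lower mean scaled CP in the endoderm-derived tissues. When each library was instead centred on the mean CP of its repeated positions, the median difference was -0.19 cycles and the share was 58.6%. The positions at an unadjusted p under 0.05 then numbered 16 with higher expression in endoderm-derived tissues and 3 with higher expression in mesoderm-derived tissues. Without pancreas the median difference was 0.23 cycles. The change of scale moves the difference of every position by the same amount, so the small differences have no settled direction.

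**Figure D2:**
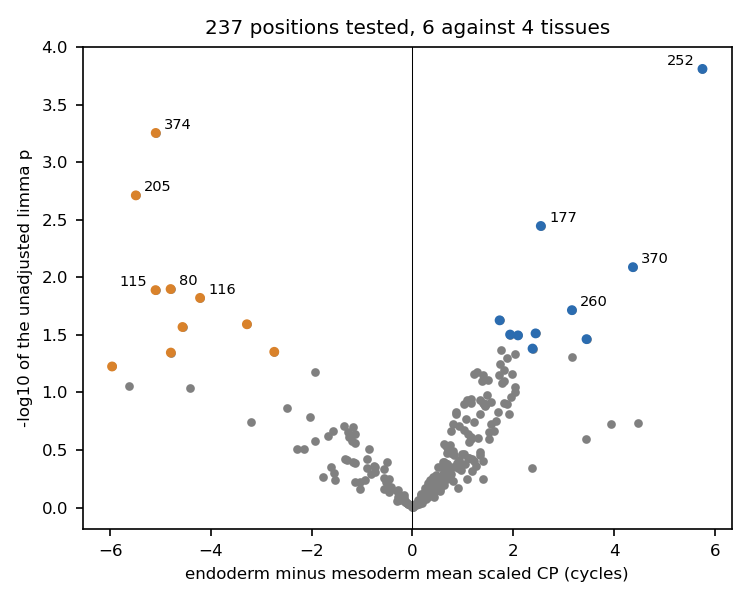
Each point is 1 of the 237 tested positions, with the mean scaled CP of the endoderm-derived tissues minus that of the mesoderm-derived tissues in cycles on the x axis and the negative log10 of the unadjusted limma p on the y axis. Orange and blue mark the 10 positions with the lowest p in each direction, and position 252 is the highest point, at 5.75 cycles.

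Position 252 had its lowest scaled CP in skeletal muscle (-4.95), heart (-3.34), and spleen (-2.97), and kidney followed at 0.50. In the endoderm-derived tissues it was 1.48 in lung, 1.86 in liver, 3.08 in prostate, 3.86 in bile duct, and 4.25 in small intestine, and it was undetected in pancreas (at least 3.85). The groups did not overlap, and the nearest tissues, kidney and lung, were 0.99 cycles apart. The other 3 mesoderm-derived tissues lay more than 3 cycles below kidney, so the level in kidney was nearer to lung and liver than to heart, skeletal muscle, and spleen. The mean was 3.06 ± 1.15 (SD, n = 6) in the endoderm-derived tissues and -2.69 ± 2.29 (SD, n = 4) in the mesoderm-derived tissues, a difference of 5.75 cycles with an SE of 1.04 (limma, adjusted p = 0.0366). Within the shorter runs it was 4.94 cycles (limma, adjusted p = 0.558), and with run length as a term in the fit it was 5.22 (limma, adjusted p = 0.403). The groups did not overlap within the shorter runs either. Over all 24 other settings the difference was from 4.29 to 6.82 cycles, with adjusted p-values from 0.00262 to 0.754, and it passed the threshold in 8 of them. Of the fits that each left out 1 tissue, the position passed the threshold without kidney (6.82 cycles), lung (6.07), or liver (5.89). It did not pass without pancreas, prostate, bile duct, heart, skeletal muscle, spleen, or small intestine, with differences from 5.04 to 5.66 cycles and adjusted p-values from 0.0979 to 0.166 (limma).

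Position 252 was 1 of 4 positions, 1.05% of 380, that were detected in every mesoderm-derived tissue at a lower scaled CP than in every endoderm-derived tissue. The others were positions 177, 370, and 164. Of the 380, the number was 7 without kidney or without lung, 9 without skeletal muscle, and 10 without spleen. Positions 252 and 177 were among them in each fit that left out 1 tissue. In the opposite direction no position was detected in every endoderm-derived tissue at a lower scaled CP than in every mesoderm-derived tissue (0%). Only 92 positions were detected in all 6 endoderm-derived tissues, against 177 in all 4 mesoderm-derived tissues. The counts of the 2 directions therefore do not start from equal numbers and cannot be set against each other.

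Position 177 was nearly level across the mesoderm-derived tissues, at 0.54 in skeletal muscle, 0.77 in heart, 1.06 in spleen, and 1.07 in kidney. The detected endoderm-derived tissues ranged from 1.91 in liver to 5.24 in small intestine, with 2.96 in prostate, 3.01 in lung, and 3.47 in bile duct. The gap between kidney and liver was 0.85 cycles. The difference of the means was 2.55 cycles with an SE of 0.70 (limma, adjusted p = 0.212). The SD between the 4 mesoderm-derived tissues was 0.25 cycles, against 1.11 between the 6 endoderm-derived tissues.

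Position 370 was at -0.23 in heart, 0.56 in skeletal muscle, 1.25 in kidney, and 1.64 in spleen. Lung (1.84) and small intestine (2.27) came next, 0.19 cycles and more above spleen, and bile duct was far higher at 8.50. With 3 endoderm-derived tissues detected, position 370 met the filter of 4 tissues only through the mesoderm-derived tissues, so its difference is a description. Pancreas, prostate, and liver were undetected, so the difference of 4.37 cycles (SE 1.37, limma, adjusted p = 0.386) includes the bounds of these 3 tissues. With undetected wells as missing values it was 3.40 cycles, and within the shorter runs it was 2.57 (limma, adjusted p = 0.463 and 0.944). The separation from lung is small and the separation from bile duct is large.

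Position 164 had a smaller spread, from -0.33 in heart to 1.39 in kidney in the mesoderm-derived tissues. It ran from 1.50 in lung to 2.67 in liver in the detected endoderm-derived tissues. Kidney and lung were 0.11 cycles apart, less than the SD of either group. The difference of the means was 1.73 cycles with an SE of 0.66 (limma, adjusted p = 0.504), and without pancreas it was 0.96 cycles (limma, adjusted p = 0.819). Without scaling, none of these 4 positions separated the groups, and on the scale of the repeated positions only position 252 did.

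**Figure D3:**
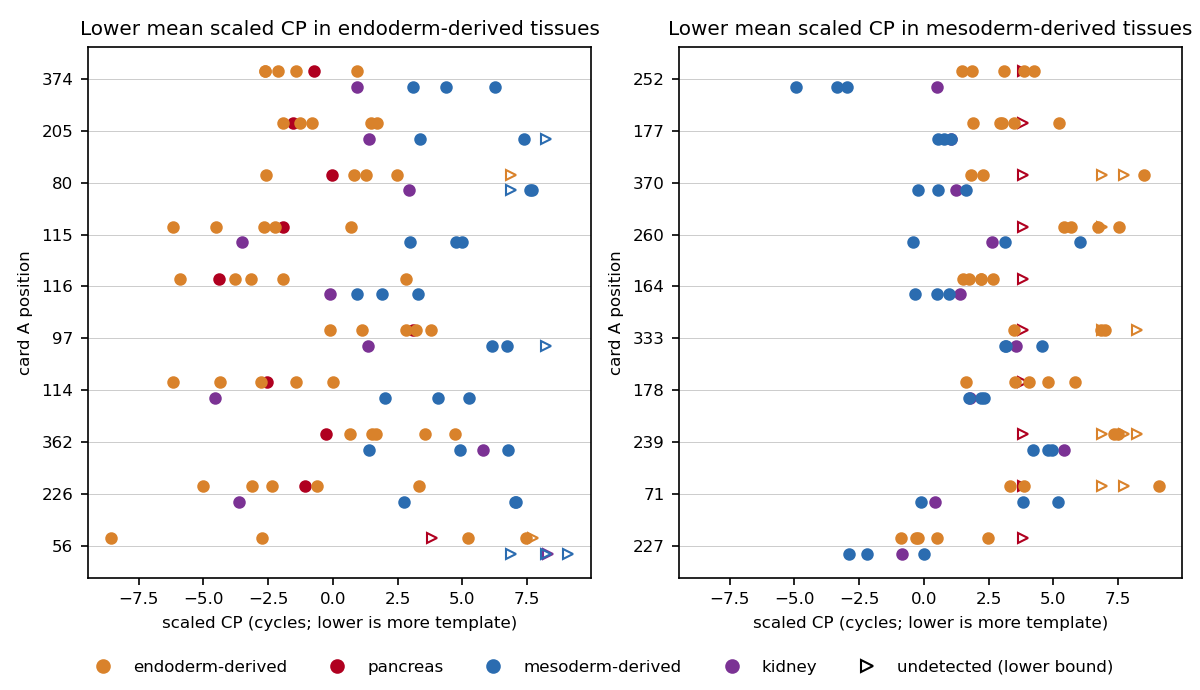
Scaled CP in cycles (x axis, lower is more template) at the 10 card A positions with the lowest p in each direction (y axis, position numbers), 1 point per tissue. Orange points are endoderm-derived tissues with pancreas in red, blue points are mesoderm-derived tissues with kidney in purple, and open triangles are undetected wells that give a lower bound. In the left panel kidney lies within the endoderm-derived range at 8 of 10 positions, against 76.8% of all 237 tested, and in the right panel pancreas is undetected at all 10.

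At the 10 positions with the lowest p for higher expression in endoderm-derived tissues, kidney mostly lay among the endoderm-derived values, and heart, skeletal muscle, and spleen mostly did not. None of these positions passed the threshold with all 10 tissues. Position 374 had the lowest p in this direction. Its scaled CP was -2.63 in both liver and bile duct, -2.12 in small intestine, -1.43 in prostate, -0.74 in pancreas, and 0.95 in lung. Kidney was at 0.93, just inside this range, and heart (3.09), spleen (4.38), and skeletal muscle (6.25) were all outside it. The difference was -5.10 cycles with an SE of 1.07 (limma, adjusted p = 0.0659). This position was detected in all 10 tissues, so no undetected well enters the value. It was -5.22 cycles within the shorter runs (limma, adjusted p = 0.558), where the groups did not overlap. Kidney and lung, which overlapped on the scale of all 10 tissues, are both shorter runs. The lack of overlap there thus comes from the scale, taken afresh over the tissues kept, and says nothing about run length. Without lung the difference was -5.57 cycles (limma, adjusted p = 0.0280). Over all 25 other settings the difference was from -6.63 to -4.09 cycles and the adjusted p from 0.0148 to 0.754. The position passed the threshold in 8 of them, among them a detection limit of 32 (limma, adjusted p = 0.0472) and the scale of the repeated positions (limma, adjusted p = 0.0442).

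Position 205 was between -1.92 (lung) and 1.70 (liver) in the endoderm-derived tissues, with pancreas at -1.54 and small intestine at -1.27. Kidney (1.39) again lay in this range. Skeletal muscle was at 3.37, spleen at 7.40, and heart was undetected (at least 8.21). The difference was -5.49 cycles with an SE of 1.37 (limma, adjusted p = 0.153), and heart, spleen, and skeletal muscle were all at lower expression than every endoderm-derived tissue.

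Positions 114 and 115 are neighbours in the file and had similar orders of tissues. At position 114, prostate was lowest at -6.17, kidney followed at -4.56, and small intestine was at -4.36. Lung, pancreas, and bile duct were between -2.79 and -1.43, and liver was at 0.00. Skeletal muscle (2.01), spleen (4.05), and heart (5.24) had higher scaled CP than all of these. At position 115 the same 3 tissues led, with prostate at -6.17, small intestine at -4.49, and kidney at -3.49, and liver (0.68) was the highest endoderm-derived tissue. Skeletal muscle (2.98), heart (4.74), and spleen (4.97) were again above. The differences of -4.56 (SE 1.80) and -5.10 cycles (SE 1.73) did not pass with all 10 tissues (limma, adjusted p = 0.504 and 0.437).

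Position 226 had the same 3 leading tissues, prostate (-5.03), kidney (-3.62), and small intestine (-3.14), but here liver (3.31) lay above skeletal muscle (2.75). Heart and spleen were at 7.03 and 7.09. Position 116 also had liver (2.84) among the mesoderm-derived values, which were -0.12 in kidney, 0.92 in heart, 1.91 in skeletal muscle, and 3.29 in spleen. The other endoderm-derived tissues were between -5.90 (prostate) and -1.92 (bile duct). At this position kidney was above every endoderm-derived tissue but liver. Without liver the groups did not overlap, and the difference of -5.43 cycles passed the threshold (limma, adjusted p = 0.0366). Position 97 ran from -0.11 in prostate to 3.80 in bile duct, with kidney at 1.35, skeletal muscle at 6.14, spleen at 6.73, and heart undetected. Position 80 ran from -2.59 in prostate to 2.49 in bile duct with kidney at 2.94, and liver and skeletal muscle were undetected there.

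Kidney was within the range of the endoderm-derived tissues at 8 of these 10 positions, skeletal muscle at 3, heart at 2, and spleen at none. Over all 237 tested positions, kidney was in that range at 76.8%, spleen at 71.7%, skeletal muscle at 70.0%, and heart at 67.9%. The count for kidney is thus near its share over all positions, and the counts of the other mesoderm-derived tissues are low at positions that were chosen for a difference between the groups. At 6 positions (374, 205, 80, 115, 97, and 114) kidney was the sole mesoderm-derived tissue in that range, as it was at 3.80% of the 237, although at position 80 the top of that range is the bound of an undetected liver well. Kidney had a lower scaled CP than the median of the endoderm-derived tissues at 4 positions. When kidney was left out, 5 of the 226 positions tested (97, 114, 115, 205, and 374) passed the threshold with higher expression in endoderm-derived tissues. In the opposite direction 1 passed, position 252. The differences at these 5 positions were then from -7.03 to -4.71 cycles, with adjusted p-values from 0.0148 to 0.0267 (limma). The same 5 positions were also detected in every endoderm-derived tissue at a lower scaled CP than in each of heart, skeletal muscle, and spleen. This follows from kidney being the sole mesoderm-derived tissue in the endoderm-derived range at each of them. These positions were also chosen for a low p, so their adjusted p-values without kidney are no separate support. With pancreas left out as well, these 5 and position 252 passed the threshold again, of 224 positions tested. Within the shorter runs, where kidney is kept, position 56 was not tested and none of the others passed (limma).

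**Figure D4:**
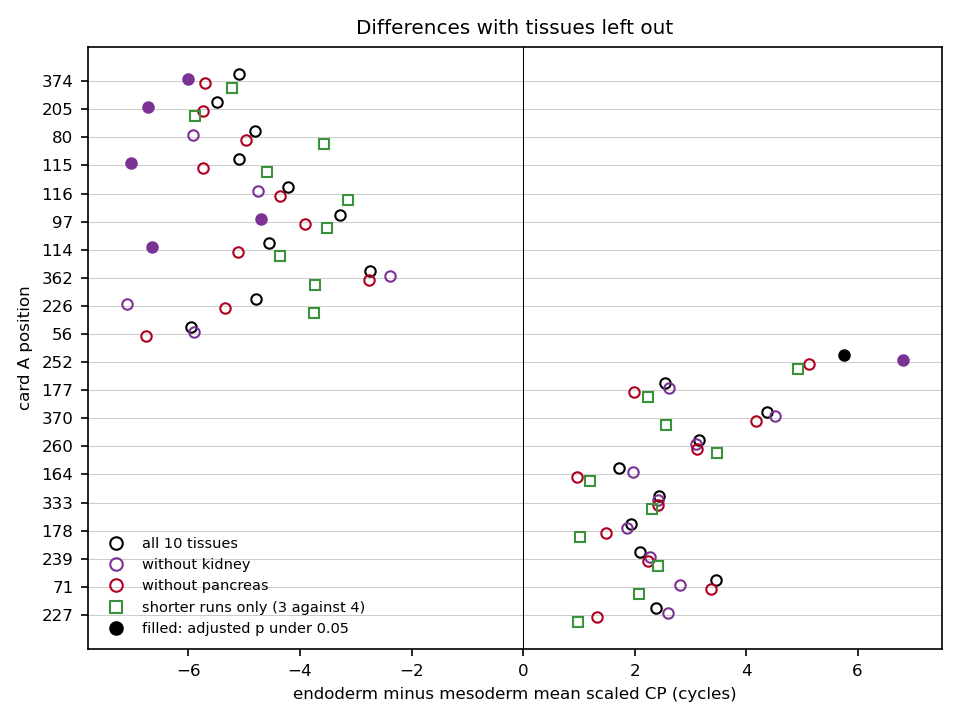
Difference of the means in cycles (x axis, endoderm-derived minus mesoderm-derived) at the 10 positions with the lowest p in each direction (y axis) with all 10 tissues, without kidney, without pancreas, and within the shorter runs (3 against 4 tissues). Filled symbols have an adjusted limma p under 0.05: position 252 with all tissues, and positions 97, 114, 115, 205, 252, and 374 without kidney. Position 56 was not tested within the shorter runs.

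The remaining 2 of the 10 positions had other orders. Position 362 was lowest in pancreas (-0.24) and liver (0.65), with heart next at 1.41, and highest in spleen (6.75). The difference was -2.74 cycles (SE 1.21, limma, adjusted p = 0.520). Position 56 was detected at a CP of 19.5 in liver, 22.7 in bile duct, 31.93 in lung, and 31.99 in small intestine and in no other of the 10 tissues. It entered the fit through endoderm-derived tissues alone, so its difference of -5.96 cycles against mesoderm-derived bounds is a description, and the SD between the endoderm-derived tissues was 6.49 cycles. This position thus set liver and bile duct apart from all other tissues rather than one germ layer from the other.

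The mesoderm side of the comparison differed in its undetected wells. All 10 positions with the lowest p on this side were undetected in pancreas, as were 125 of the 237 positions tested. Over these 10 positions, 20 endoderm-derived wells and no mesoderm-derived well were undetected. On the endoderm side pancreas was detected at 9 of the 10 positions, and 3 endoderm-derived and 7 mesoderm-derived wells were undetected. Without pancreas, the differences at positions 252 and 177 were 5.13 and 1.99 cycles (limma, adjusted p = 0.0979 and 0.432). Those at positions 164 and 227 were 0.96 and 1.32 cycles, smaller by more than 1.5 times, and positions 164 and 370 no longer separated the groups. The other positions on this side were 260, 333, 178, 239, 71, and 227, with differences from 1.94 to 3.45 cycles and adjusted p-values from 0.504 to 0.520 (limma). At each of them but position 239, at least 1 detected endoderm-derived tissue lay below the highest mesoderm-derived tissue. At position 239 only pancreas did, by its bound of 3.85, so an overlap there is not certain. Positions 333 and 71 were detected in 3 endoderm-derived tissues and position 239 in 2. Like position 370, they met the filter of 4 tissues only through the mesoderm-derived tissues, so their differences are descriptions. Position 178 was between 1.75 and 2.31 in the 4 mesoderm-derived tissues and between 3.51 and 5.86 in the detected endoderm-derived tissues except liver, which was at 1.65.

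Detection alone was then compared. No position was detected in all 6 endoderm-derived tissues and in none or 1 of the mesoderm-derived tissues, and no position was detected in all 4 mesoderm-derived tissues and in none or 1 of the endoderm-derived tissues. There were 32 positions detected only in endoderm-derived tissues, of which 19 were detected in a single tissue and position 56 in the most, 4. There were 15 detected only in mesoderm-derived tissues, of which 10 were in a single tissue and 2 in 3 tissues. These numbers depend on the number of tissues in each group and were not tested.

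The 8 positions detected in 3 endoderm-derived tissues and no mesoderm-derived tissue were 57, 131, 132, 133, 156, 241, 328, and 345, and 7 of them were detected in pancreas. Position 133 had a CP of 28.7 in pancreas, 28.8 in small intestine, and 32.9 in bile duct, and no mesoderm-derived well amplified. Position 57 had a CP of 26.7 in pancreas and 29.0 in small intestine, and bile duct was just inside the limit at 34.8. Position 241 had a CP of 27.5 in bile duct, 30.4 in prostate, and 31.7 in pancreas, and did not amplify elsewhere. None of these 3 positions was detected in lung or liver. On the mesoderm side position 278 had a CP of 32.1 in skeletal muscle, 32.3 in kidney, and 34.0 in heart, and no endoderm-derived well amplified. Position 203 was called in kidney, skeletal muscle, and spleen at a CP from 33.7 to 34.8, but 4 of the endoderm-derived wells were at 35.8 to 36.5, just past the limit.

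The profiles as a whole were compared next, over the 237 tested positions. The Spearman correlation of scaled CP averaged 0.710 over the 15 pairs of endoderm-derived tissues and 0.725 over the 6 pairs of mesoderm-derived tissues. It averaged 0.671 over the 24 pairs that join the germ layers. Pairs within a germ layer exceeded pairs between them by 0.0435 on average, and this did not pass a one-sided exact permutation test over the 210 ways to choose 6 of the 10 tissues (p = 0.0524). Within the shorter runs the excess was 0.0027 (one-sided exact permutation test, p = 0.400). Without kidney it was 0.0739 (one-sided exact permutation test, p = 0.0238), and it also passed without lung (0.0662), liver (0.0581), or pancreas (0.0349). The correlations share the positions of 1 card, and each tissue enters several pairs.

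Kidney correlated with the endoderm-derived tissues at a median of 0.775, from 0.527 with pancreas to 0.808 with lung. With the other mesoderm-derived tissues its median was 0.703, from 0.671 with skeletal muscle to 0.771 with spleen. Heart, skeletal muscle, and spleen correlated with the endoderm-derived tissues at a median of 0.671. The highest correlation of all was 0.838 between prostate and bile duct, both longer runs. The best partner lay in the same germ layer for pancreas, prostate, bile duct, skeletal muscle, and spleen. It lay in the other germ layer for the remaining 5 tissues: kidney was the best partner of lung (0.808), small intestine (0.807), and liver (0.780), and lung was that of kidney and of heart (0.793). Pancreas, prostate, and bile duct are the longer runs, and the best partner of each was another of them. For these tissues germ layer and run length cannot be told apart. The correlations of pancreas were low, at 0.535 to 0.693 with the endoderm-derived tissues and 0.417 to 0.527 with the mesoderm-derived tissues. At 125 of the tested positions the pancreas value is the same bound of an undetected well, and its part in these correlations was not tested.

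**Figure D5:**
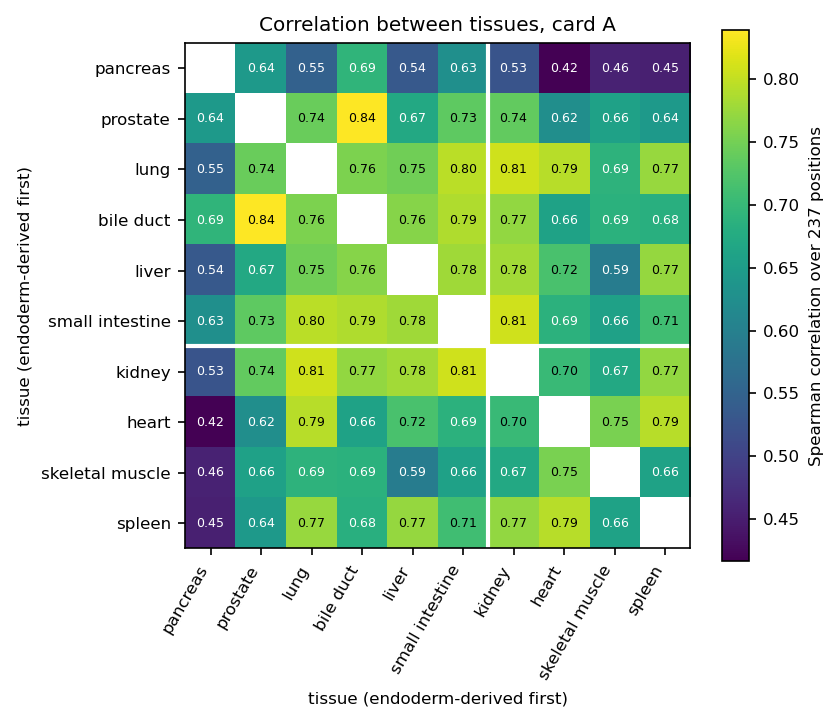
Spearman correlation of scaled CP over 237 positions for each pair of tissues, with endoderm-derived tissues first on both axes and white lines between the germ layers. Kidney had values of 0.74 to 0.81 with the endoderm-derived tissues other than pancreas, and the lowest value of the matrix, 0.42, joined pancreas and heart.

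Each tissue was also set against the mean of the other tissues of its own germ layer and the mean of the opposite germ layer at each of the 237 positions. Bile duct was nearer to its own germ layer at 66.7% of positions, prostate at 65.4%, heart at 61.6%, skeletal muscle at 57.4%, and small intestine at 56.5%. Kidney (51.5%) and liver (50.6%) were divided about evenly. Spleen (47.3%), pancreas (46.8%), and lung (46.0%) were nearer to the opposite germ layer at more positions. These shares are descriptions, because positions of a card are not independent and the means hold different numbers of tissues. At 125 of the 237 positions the pancreas value is a bound, and bile duct and prostate, with the highest shares, are both longer runs.

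Libraries that had no part in the fit were read at the same positions. Intestinal villus and bronchial gland are parts of endoderm-derived organs, and proximal tubule and glomerulus are parts of the kidney. All 4 were isolated by laser microdissection, with 1 library each and 12 cycles of preamplification. They were scaled to the same 88 positions and compared only among themselves. Villus and bronchial gland had card levels of 22.1 and 21.1 cycles and 217 and 248 detected positions. Proximal tubule and glomerulus had card levels of 26.0 and 26.0 cycles and 186 and 177 detected positions. The villus and both kidney compartments come from organs that were in the fit. Of the 237 positions, 150 were detected in all 4, and both villus and bronchial gland had a lower scaled CP than both kidney compartments at 22 of them (14.7%). Among the 8 such positions on the endoderm side, this was the case at 6. Position 374 was at -3.69 in bronchial gland and -1.16 in villus, against 6.06 in glomerulus and 7.98 in proximal tubule. Position 205 was at -3.91 and -3.70, against 4.98 and 2.97 in the same order. Positions 114 and 115 were lower in proximal tubule (-2.04 and -3.02) than in glomerulus (0.02 and 0.03), and the villus was lower than both (-3.09 and -3.56). On the mesoderm side, both villus and bronchial gland had a higher scaled CP than both kidney compartments at 5 of the 7 positions detected in all 4, against 49 of the 150 (32.7%). Position 252 was detected in bronchial gland (5.58) and undetected in villus (at least 12.9), proximal tubule (at least 9.02), and glomerulus (at least 9.01). Bronchial gland thus had a lower scaled CP than both kidney compartments, the reverse of the direction between the tissue groups. Villus could not be compared with the kidney compartments at this position. These counts and the part of preamplification and of the card level in them were not tested.

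The salivary and lacrimal glands were nearer to the mean of the endoderm-derived tissues at 64.1% and 68.4% of the 237 positions. On the endoderm side they were so at 9 and 8 of the 10 positions, and on the mesoderm side at 8 and 9 of the 10. Position 205 was at -2.95 in salivary gland and -4.02 in lacrimal gland, lower than in any of the 10 tissues. Position 374 was at -0.58 in salivary gland and was undetected in lacrimal gland (at least 7.81), so these 2 glands differed there by more than any pair of endoderm-derived tissues.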

How the data were processed

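RNA of whole tissues was isolated with TRIzol and measured by real-time PCR on TaqMan card A. The deposited CP values were read by the authors from amplification plots in SDS and RQ Manager and are not normalized. Wells that did not amplify hold 50. Software versions are not given in the sources used here. Card B was not analysed here.

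Values above a CP of 35 were set to 35, and each library was centred on the median of the 88 positions that every one of the 10 tissues detected. Where tissues were left out or the detection limit was changed, this median was taken afresh over the positions detected in all tissues kept. That set held from 54 positions (limit of 32) to 151 (shorter runs). Differences in these settings thus hold both the change of tissues or limit and the change of scale. Since CP is already a log scale, limma was fitted to the scaled values across all 237 positions detected in at least 4 tissues, without covariates, with the Benjamini-Hochberg adjustment and a threshold of 0.05. Single values were compared by exact permutation over the 210 choices of tissues, whose smallest p is 0.00476. The 10 positions with the lowest p in each direction were named, together with every position without overlap, all of which were among them. The number of tissues limits the precision, since each is a single library. The fit was tested on simulated data. The germ layer groups and the tests were chosen with earlier results of these data known. Other settings tried were different detection limits, scales, filters, and limma options, the shorter runs alone, run length as a term, and tissues left out. Undetected wells as missing values, and kidney and pancreas left out together, were added as alternatives after the data were seen. The analysis used R 4.3.3 with limma 3.58.1, and Python 3.11.15 with matplotlib 3.10.9, scipy 1.17.1, numpy 2.4.6, and pandas 2.3.3.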

Additional observations from a re-analysis of the deposited data

Results flagged for a closer look

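Within the germ layers, 46 groups of values were examined for a tissue far from the others, and 2 stood out, which is no more than the 1 in 20 that chance gives. At position 239 the gap of pancreas (3.85, an undetected well and thus a bound) to the nearest endoderm-derived tissue was 0.690 of the range, above the critical value of 0.625. At position 80 the gap of kidney (2.94) to the nearest mesoderm-derived tissue was 0.833 of the range, against a critical value of 0.829. That tissue was skeletal muscle, an undetected well at its bound of 6.89, so neither ratio is exact.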

How the results depend on the processing

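The 20 named positions kept their direction in all 477 values under other settings, but they were chosen for that difference, so this is no sign of stability. The number of positions with an adjusted p under 0.05 on the mesoderm side was 1, and it was 0 with values up to CP 40 kept, undetected wells at 40, no scaling, shorter runs only, run length as a term, no filter on detection, positions detected in all 10 tissues only (position 252 is not tested there), the exact permutation test of each position (smallest adjusted p 0.484, with 23 positions at an unadjusted p under 0.05), and with heart and skeletal muscle or liver and bile duct left out. On the endoderm side it was 0, and it was 1 with a limit of 32, positions detected in all 10 tissues, the trend and robust options of limma, undetected wells as missing, and liver and bile duct left out, 2 with the repeated positions as the scale, and 5 with kidney and pancreas left out. With each tissue left out it ran from 0 to 5 on the endoderm side, the highest without kidney, and from 0 to 1 on the mesoderm side. The positions tested numbered 237 in the main fit, 175 with a limit of 32, 88 when detected in all 10 tissues, and 307 with no filter. With each tissue left out they numbered from 222 (without lung) to 237 (without pancreas).

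Positions without overlap numbered 4 on the mesoderm side, and 1 with a limit of 32, the repeated positions as the scale, or no scaling, 9 in the shorter runs, and 10 without heart and skeletal muscle. On the endoderm side there were 0, and 1 with the repeated positions as the scale, 2 with values up to CP 40 kept, 3 in the shorter runs or without heart and skeletal muscle, 4 without liver and bile duct, and 9 without kidney and pancreas. With each tissue left out these ran from 3 (without pancreas, prostate, or heart) to 10 (without spleen) and from 0 to 5 (without kidney). Fewer tissues make a separation easier by construction, but the scale was also taken afresh over the tissues kept, which can make or undo a separation.

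The excess of correlation within germ layers (0.0435) passed the threshold with a limit of 32 (0.0698, one-sided exact permutation test, p = 0.0333). With each tissue left out it was from 0.0328 to 0.0739, and it passed without kidney, lung, liver, or pancreas. The difference in card level, 0.325 cycles, was -0.143 in the shorter runs. It ran from 0.00385 (without pancreas, and 0.00603 without spleen) to 0.872 (without lung) with each tissue left out. In these settings the card level was taken afresh over the positions detected in all tissues kept. The difference in detected positions, -25.6, was from -35.2 (without lung) to -10.4 (without pancreas). The causes were not tested. No paired analysis was possible because the tissues have no replicate libraries.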
